A study of Mus musculus with 8 samples.

Results

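The gene segments of the T cell receptor were followed in splenic regulatory T cells (Tregs) that carried TNFR2, the second receptor for tumor necrosis factor, and in Tregs that did not. Genes were taken by name after matching the table's Ensembl identifiers to mouse symbols, keeping the variable (V) and joining (J) segments and the constant genes of the alpha, beta, delta and gamma chains. Of 248 such genes in the annotation, 116 had a row among the 20172 genes of the table. They comprised 86 alpha V segments, 22 beta V segments, 4 delta V segments and the 4 constant genes Trac, Trbc1, Trbc2 and Trdc, and none of the 74 annotated J segments had a row. Both groups were YFP+ Tregs from Foxp3CreYFP mice aged 8 to 12 weeks, in which the Foxp3 locus drives a fluorescent Cre fusion. All mice of both groups carried this reporter allele, and the sex of the mice behind each sample is not given in the sources used here. TNFR2+ Tregs and TNFR2- Tregs were sorted from the same organ into 4 samples each, with 100000 cells per sample. The sources give 4 replicates a group but do not say how many mice made up a sample or whether replicate numbers mark shared animals, so p-values measure the spread between these samples, which may be partly technical.

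Each T cell builds its receptor by V(D)J recombination, which joins germline V and J segments of a locus into 1 exon that is spliced to a constant region. At the beta and delta loci, D segments are joined as well. In bulk RNA the level of a V segment therefore sums the clones that use it, whereas the constant genes sum all clones of that chain. Most splenic Tregs carry an alpha beta receptor, which reaches the surface together with the CD3 chains and the zeta chain. Germline V segments are short, and on mouse chromosome 14 the alpha locus holds duplicated V clusters, whose copies are marked "d" and "n" in their names. The last part of a V exon, from its conserved cysteine codon on, begins the third complementarity-determining region, where junctions differ between clones.

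Germline sequences of the segments on which the results turn are given here because reads can be assigned to a segment only through its sequence. All are the coding part of the V exon on the plus strand of GRCm38, read 5′ to 3′ from the GENCODE M21 transcripts, cut to the last 300 bases where the exon was longer. For the first 4 segments, the largest beta V segments by share and those whose shares separated the groups, capitals run from the last in-frame cysteine codon to the germline end.
Trbv3, chr6:41048529-41048828: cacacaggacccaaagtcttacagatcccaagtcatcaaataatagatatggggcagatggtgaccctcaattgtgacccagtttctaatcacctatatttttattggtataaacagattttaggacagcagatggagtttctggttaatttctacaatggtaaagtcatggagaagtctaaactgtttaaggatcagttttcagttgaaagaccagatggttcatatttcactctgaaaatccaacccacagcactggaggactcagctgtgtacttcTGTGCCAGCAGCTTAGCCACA
Trbv13-2, chr6:41121539-41121832: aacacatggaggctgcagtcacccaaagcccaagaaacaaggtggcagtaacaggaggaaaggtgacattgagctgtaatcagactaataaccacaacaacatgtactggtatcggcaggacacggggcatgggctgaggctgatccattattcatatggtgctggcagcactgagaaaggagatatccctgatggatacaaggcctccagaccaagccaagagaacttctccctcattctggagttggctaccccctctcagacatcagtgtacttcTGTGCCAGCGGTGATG
Trbv16, chr6:41151933-41152230: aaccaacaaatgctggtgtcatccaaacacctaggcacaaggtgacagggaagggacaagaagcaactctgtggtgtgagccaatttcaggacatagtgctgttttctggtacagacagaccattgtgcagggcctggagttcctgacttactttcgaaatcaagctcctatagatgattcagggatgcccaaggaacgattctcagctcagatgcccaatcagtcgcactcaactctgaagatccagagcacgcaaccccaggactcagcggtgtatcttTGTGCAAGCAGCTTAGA
Trbv13-3, chr6:41130292-41130585: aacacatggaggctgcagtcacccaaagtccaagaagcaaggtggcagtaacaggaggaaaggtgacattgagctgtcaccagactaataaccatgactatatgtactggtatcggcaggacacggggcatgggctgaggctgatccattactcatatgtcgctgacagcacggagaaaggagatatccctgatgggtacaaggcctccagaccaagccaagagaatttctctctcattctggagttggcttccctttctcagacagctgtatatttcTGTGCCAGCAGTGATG
Trbv13-2 and Trbv13-3 differed at 24 of 294 bases, an identity of 91.8%, so neither counted as a near-identical copy at the 95% used here, and no beta V segment had such a copy in the table.

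For alpha segments, the copies themselves matter. Trav7-2 is shown because the annotated Trav7d-2 exon at chr14:52684185-52684472 repeats its 287 bases without a difference, and the whole transcripts matched over all 336 bases compared.
Trav7-2, chr14:53390856-53391142: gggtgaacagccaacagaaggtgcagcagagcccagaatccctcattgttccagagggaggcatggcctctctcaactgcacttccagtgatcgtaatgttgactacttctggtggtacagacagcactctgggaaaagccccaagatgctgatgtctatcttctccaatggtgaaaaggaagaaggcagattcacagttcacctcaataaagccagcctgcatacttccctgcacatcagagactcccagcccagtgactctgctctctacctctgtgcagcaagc
Trav15-1-dv6-1 and Trav15d-1-dv6d-1 are shown as a pair that differs at 15 of 300 bases, and capitals mark those bases.
Trav15-1-dv6-1, chr14:53559948-53560247: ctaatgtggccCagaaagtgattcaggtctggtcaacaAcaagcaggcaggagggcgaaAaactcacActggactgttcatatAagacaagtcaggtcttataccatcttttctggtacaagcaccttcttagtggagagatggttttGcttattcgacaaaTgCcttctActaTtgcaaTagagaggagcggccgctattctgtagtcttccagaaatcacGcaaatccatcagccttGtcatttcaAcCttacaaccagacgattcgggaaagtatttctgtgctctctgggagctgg
Trav15d-1-dv6d-1, chr14:52863637-52863936: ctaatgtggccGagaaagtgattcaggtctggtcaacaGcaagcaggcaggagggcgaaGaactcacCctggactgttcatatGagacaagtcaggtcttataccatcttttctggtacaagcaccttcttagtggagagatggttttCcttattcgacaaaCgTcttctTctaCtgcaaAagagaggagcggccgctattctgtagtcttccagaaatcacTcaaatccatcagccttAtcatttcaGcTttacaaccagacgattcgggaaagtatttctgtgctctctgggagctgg
Trav7-5 and Trav7d-5 differ at 14 of 288 bases, again in capitals.
Trav7-5, chr14:53531026-53531313: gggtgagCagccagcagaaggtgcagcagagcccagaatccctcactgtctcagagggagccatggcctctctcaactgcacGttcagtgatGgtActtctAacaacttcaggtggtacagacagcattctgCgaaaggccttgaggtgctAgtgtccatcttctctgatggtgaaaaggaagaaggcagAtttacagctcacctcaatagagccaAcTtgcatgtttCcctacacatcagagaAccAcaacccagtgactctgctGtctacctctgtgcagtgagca
Trav7d-5, chr14:52836100-52836387: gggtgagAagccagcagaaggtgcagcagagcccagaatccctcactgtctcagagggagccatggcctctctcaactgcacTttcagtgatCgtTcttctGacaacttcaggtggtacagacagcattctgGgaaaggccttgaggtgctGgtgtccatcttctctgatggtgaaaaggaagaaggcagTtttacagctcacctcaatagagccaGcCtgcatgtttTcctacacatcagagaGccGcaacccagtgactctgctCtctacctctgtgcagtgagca

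The libraries summed to 9576920 to 10295226 normalized counts in TNFR2+ Tregs and to 10483291 to 11492762 in TNFR2- Tregs. Low values of genes with a single transcript lay near multiples of 0.85 to 1.16 normalized counts, so that 1 normalized count stood for about 1 read, although only 69.7% to 96.5% of those values lay within 0.1 of a whole read. Counting error takes its largest part in segments with low counts. Tnfrsf1b, which encodes TNFR2 and defined the sort, measured 1840 to 3148 in TNFR2+ and 1177 to 1563 in TNFR2- libraries. Foxp3 measured 2812 to 3313 in TNFR2+ and 3292 to 4033 in TNFR2- libraries. The Treg markers did not move together, since Il2ra lay lower in TNFR2+ libraries (2561 to 3070 against 3219 to 3990) and Ctla4 (3968 to 5030 against 1985 to 2829) and Ikzf2 (8119 to 11555 against 3180 to 7270) lay higher. The 5 markers, the sort gene included, summed to 20487 to 24840 and 14349 to 17789. The CD8 T cell markers Cd8a and Cd8b1 summed to 46.0 to 64.2 in TNFR2+ and 44.5 to 76.1 in TNFR2- libraries, most of it Cd8b1. The 2 measured myeloid markers of 5, Itgam and Csf1r, summed to 2.92 to 8.80 and 10.6 to 30.4. The 6 measured B cell markers of 7 summed to 3612 to 5749 in TNFR2+ and 1711 to 2787 in TNFR2- libraries, most of it Ighm (3433 to 5576 and 1583 to 2404). Of the others, Igkc reached 198.8, Ms4a1 99.4, Ighd 73.5, Cd79b 64.6 and Cd79a 6.10 in the highest library.

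No segment or constant gene passed the test between TNFR2+ and TNFR2- Tregs. Of the 78 with a mean of at least 10 normalized counts (53 alpha V, 21 beta V and 4 constant), 0 were called at an adjusted p under 0.05 by limma on log2(normalized count + 1), against 7.91% of all 13990 genes tested. At an unadjusted p under 0.05 there were 5, of which Trac, Trbv16 and Trav9d-3 had higher means in TNFR2+ Tregs and Trav7-5 and Trav15-1-dv6-1 had lower means, against 23.0% of all genes. The other 38 of the 116 were too low to test, among them all 4 delta V segments. The median log2 difference over the 78 was 0.09, with 42 positive and 36 negative, beside a median of -0.01 over all genes tested. Leaving out 1 library moved the median of the 78 to between -0.08 and 0.08, so its sign was not stable. Levels of the groups did not overlap for 5 of the 78 (Trac, Trbv16 and Trav13-1 above, Trav7-5 and Trav15-1-dv6-1 below), against 15.4% of all genes tested. Only 16 of the 78 had a mean of at least 50, against 10245 of the 13990 genes, so these percentages compare unlike levels. In a fit restricted to such means, 0 of the 16 were called, against 1129 of the 10245 genes. Fewer cells using a segment and less RNA per cell cannot be told apart in such bulk samples.

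**Figure D1:**
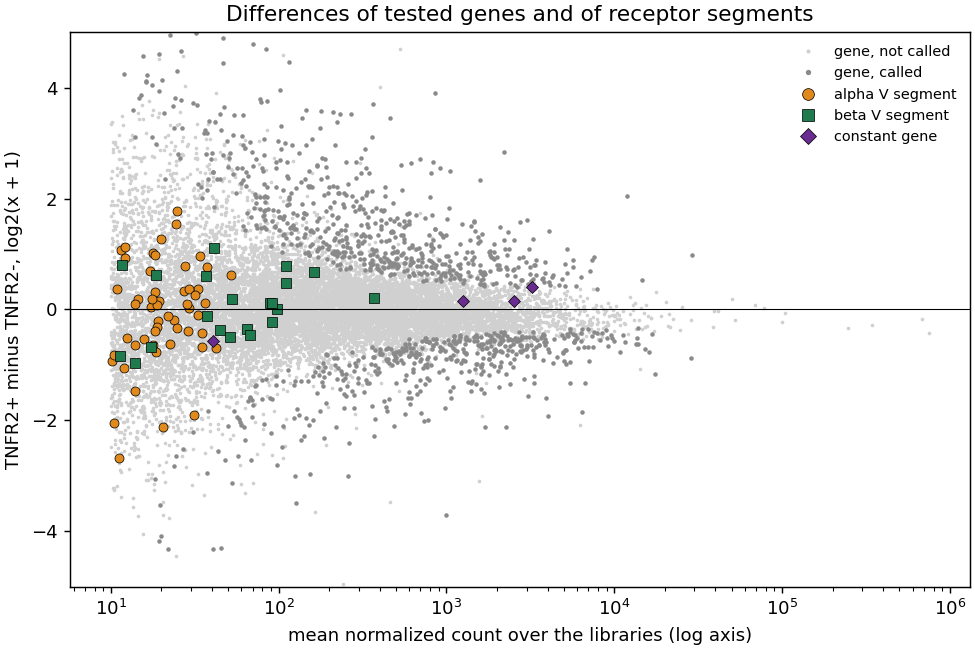
Log2 difference on the log2(x + 1) scale, TNFR2+ minus TNFR2- (vertical axis), against the mean normalized count over the 8 libraries (horizontal log axis), for all tested genes in grey (darker where called) and for receptor genes in color. None of the 78 colored points was called, and the alpha V segments lie at the low end of the axis, where the differences of all genes scatter most. A further 7 genes lie outside the plotted range.

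Among the constant genes, Trac, the constant region of the alpha chain (ENSMUSG00000076928, chr14:54220521-54224206), came nearest to a call. It measured 3707, 3848, 4117 and 2970 normalized counts in the TNFR2+ libraries and 2933, 2922, 2917 and 2296 in the TNFR2- libraries. The groups did not overlap, with TNFR2+ replicate 4 only just above the TNFR2- range, and TNFR2- replicate 4 lay far below the other libraries of its group. The log2 difference was 0.40 (SE 0.13, 95% confidence interval 0.12 to 0.68, adjusted p = 0.0824 by limma). Without TNFR2+ replicate 4 the difference was 0.50 and passed the threshold (adjusted p = 0.0393 by limma). Leaving out any other single library did not make it pass. Without TNFR2- replicate 4, the far library, the difference was 0.31 (adjusted p = 0.167 by limma). Without TNFR2+ replicate 3 it was 0.34 (adjusted p = 0.208 by limma). The library sums and Ighm also separated the groups, and their part in this difference was not tested.

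The beta constant genes overlapped between the groups. Trbc1 (ENSMUSG00000076490, chr6:41538218-41539881) measured 1053, 1486, 1376 and 1350 in TNFR2+ and 1164, 1012, 1109 and 1455 in TNFR2- libraries, a log2 difference of 0.15 (95% interval -0.18 to 0.49, adjusted p = 0.606 by limma). Trbc2 (ENSMUSG00000076498, chr6:41546730-41548352) measured 2624, 2744, 2624 and 2680 against 2440, 2045, 2304 and 2854, a log2 difference of 0.16 (95% interval -0.10 to 0.42, adjusted p = 0.481). TNFR2+ libraries were tightly grouped for Trbc2, whereas TNFR2- libraries spread on both sides of them. The first coding exons of the pair differ at 1 of 375 bases, so the division of reads between them is uncertain. Trbc1 took 28.6% to 35.1% of their sum in TNFR2+ and 32.3% to 33.8% in TNFR2- libraries.

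Per kilobase of the longest annotated transcript, Trac stood at 3437 normalized counts, Trbc2 at 3670 and Trbc1 at 1697, as means over the 8 libraries. The alpha V segments together stood at 3445 per kilobase and the beta V segments at 3963 per kilobase. Unscaled by length, the alpha V sum was 1446, 1350, 1463 and 1307 in TNFR2+ and 1388, 1287, 1352 and 1212 in TNFR2- libraries. The beta V sum was 1572, 1796, 1582 and 1756 against 1492, 1328, 1552 and 1668. Both sums overlapped between the groups, with log2 ratios of the group means of 0.09 for alpha and 0.15 for beta, and no test was made of these sums. The alpha V sum divided by Trac was 0.390, 0.351, 0.355 and 0.440 in TNFR2+ and 0.473, 0.441, 0.463 and 0.528 in TNFR2- libraries, lower in TNFR2+ libraries with the groups nearly touching. The matching beta ratio, to Trbc1 plus Trbc2, overlapped (0.396 to 0.436 and 0.387 to 0.455).

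All 116 genes together made up 0.1001% to 0.111% of the TNFR2+ libraries and 0.0754% to 0.0894% of the TNFR2- libraries. Their summed levels, 10107 to 11284 and 8667 to 9535 normalized counts, did not overlap either. The library sums that divide these shares also separated the groups, lying lower in TNFR2+ libraries. Without Trac these shares were 0.0701% to 0.0722% and 0.05% to 0.0642%, still without overlap, whereas the summed levels without Trac were 6739 to 7436 and 5745 to 7239 normalized counts and overlapped.

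The chains that travel with the receptor were compared with recombination genes as a list of 9, of which 6 could be tested and 1 was called, against 7.91% of all genes tested. Cd3e, the epsilon chain of CD3, was higher in TNFR2+ Tregs at 3614, 3872, 3998 and 3613 against 2567, 2381, 2850 and 2783 normalized counts. All TNFR2+ libraries lay above all TNFR2- libraries, with a log2 difference of 0.51 (SE 0.11, 95% interval 0.29 to 0.74, adjusted p = 0.00919 by limma). With a variance prior that ignored intensity it missed the threshold (adjusted p = 0.0863). Cd3g, the gamma chain, had a log2 difference of 0.50 at an adjusted p of 0.0514 by limma, with TNFR2- replicate 4 (4150) above TNFR2+ replicate 4 (4120). Cd3d, the delta chain, had a log2 difference of 0.25 (adjusted p = 0.355) and Cd4, the coreceptor, one of 0.28 (adjusted p = 0.192). Cd247, the zeta chain, had the opposite sign at -0.28 (95% interval -0.59 to 0.04, adjusted p = 0.278), with 1 TNFR2- library at 3178 against 2088 to 2236 in the others. Ptcra, the surrogate alpha chain of developing thymocytes, was low at 6.81 to 27.0 and 3.41 to 12.7 (adjusted p = 0.270). Rag2, part of the recombinase, and Dntt, which adds bases at junctions, were measured at means too low to test, and Rag1 had no row.

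**Figure D2:**
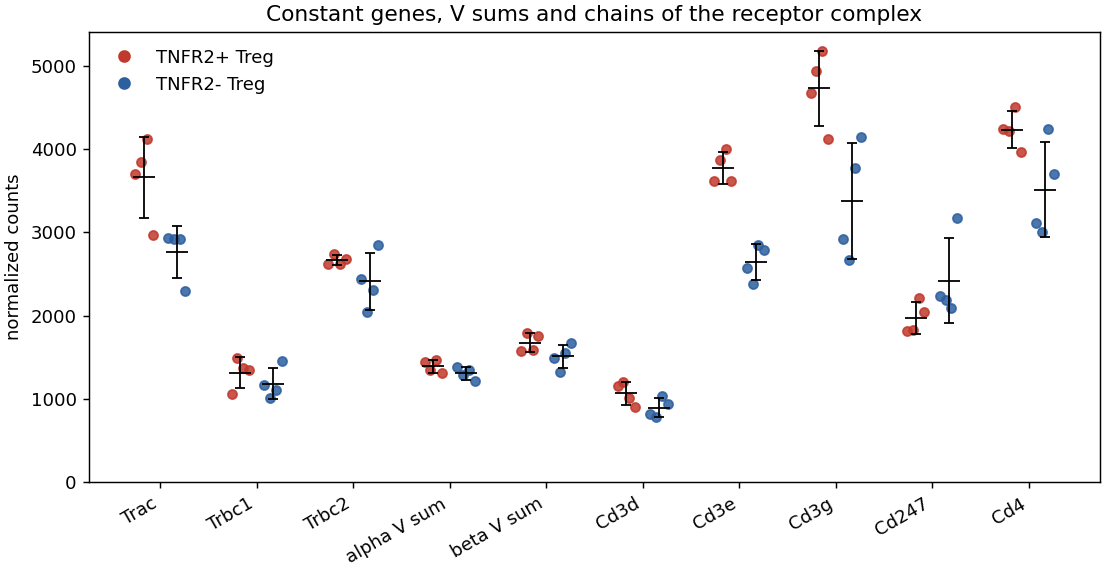
Normalized counts (vertical axis) of the alpha and beta constant genes, the alpha and beta V sums, and the CD3, zeta and CD4 genes in the 4 TNFR2+ (red) and 4 TNFR2- (blue) libraries, with the mean and SD of each group. The groups separate for Trac and Cd3e and overlap for the beta constant genes and both V sums.

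The beta V repertoire was uneven and was led by Trbv3 in every library. Trbv3 (chr6:41048290-41048828) held 31.1%, 20.4%, 23.2% and 20.4% of the beta V sum in TNFR2+ and 26.2%, 22.4%, 24.4% and 18.6% in TNFR2- libraries. It ranked first by mean share, at 23.3% ± 3.98 (SD, n = 8). The 10 largest segments held 78.6% of the sum on average, in the order Trbv3, Trbv13-2, Trbv16, Trbv5, Trbv2, Trbv19, Trbv15, Trbv13-1, Trbv13-3 and Trbv1. After Trbv3, neighbors in this order did not differ beyond their spread over libraries. They ran from Trbv13-2 at 9.94% ± 2.99 and Trbv16 at 6.89% ± 2.02 to Trbv1 at 4.12% ± 1.52. In TNFR2+ replicate 1, for example, Trbv16 (8.95%) and Trbv5 (8.31%) held more than Trbv13-2 (8.09%). In the usage test, in which each V level was divided by its library's V sum before the same limma fit, 0 of 74 V segments were called, against 7.91% of all genes. Only 13 of the 74 had a mean of at least 50, so levels were unlike here too. In that fit the difference for Trbv3 was 0.04 on the log2 scale, with a 95% interval from -0.39 to 0.48.

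Trbv16 (ENSMUSG00000076473, chr6:41151740-41152230) had the highest ratio of shares, TNFR2+ over TNFR2-, among beta V segments with a mean of at least 50 (1.57). Its level was 140.8, 140.7, 163.0 and 115.2 in TNFR2+ and 78.5, 86.4, 84.0 and 71.5 in TNFR2- libraries. Its share of the beta V sum was 8.95%, 7.83%, 10.3% and 6.56% in TNFR2+ against 5.26%, 6.51%, 5.41% and 4.28% in TNFR2- libraries. The 4 TNFR2+ libraries were higher on both measures, but the lowest TNFR2+ share and the highest TNFR2- share were close together. The level differed by 0.79 on the log2 scale (SE 0.27, 95% interval 0.22 to 1.36, adjusted p = 0.0895 by limma) and the usage by 0.64 (95% interval 0.03 to 1.25, adjusted p = 0.195). With a variance prior that ignored intensity, the level difference passed the threshold (adjusted p = 0.0438 by limma). With only segments of a mean of at least 50 in the beta V sum, the Trbv16 shares of the groups overlapped.

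Trbv13-3 was the other beta segment whose shares separated the groups, in the opposite direction. It held 2.61%, 3.68%, 3.01% and 4.35% in TNFR2+ and 5.44%, 5.63%, 4.54% and 4.96% in TNFR2- libraries, while its levels overlapped (41.0 to 76.5 and 70.5 to 82.7). In the usage fit the difference was -0.60 on the log2 scale (95% interval -1.31 to 0.11, adjusted p = 0.3002 by limma). Trbv13-2, its closest relative printed above, held 8.09%, 13.2%, 11.2% and 14.5% against 6.72%, 5.99%, 9.57% and 10.2%. These shares overlapped, with a usage difference of 0.53 (95% interval -0.08 to 1.14, adjusted p = 0.287).

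**Figure D3:**
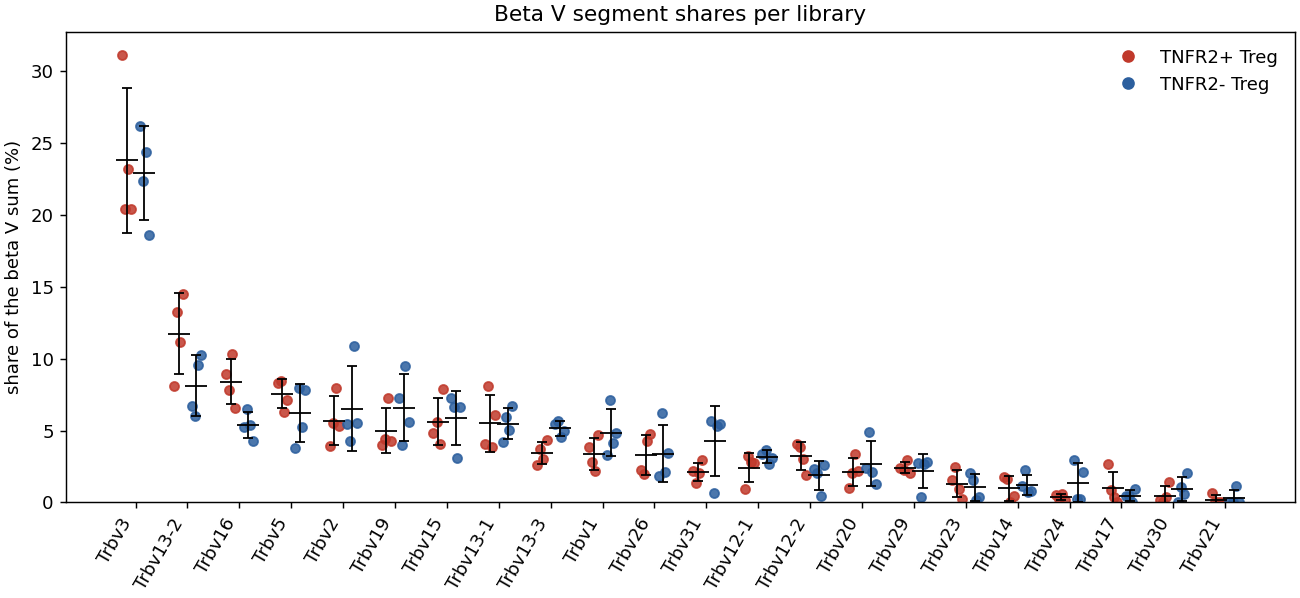
Share of the beta V sum in percent (vertical axis) for all 22 measured beta V segments, ordered by mean share, in the 4 TNFR2+ (red) and 4 TNFR2- (blue) libraries, with the mean and SD of each group. Trbv3 leads in every library, and the groups are separate for Trbv16 and Trbv13-3.

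Shares did not overlap between groups for 4 of the 74 tested V segments (5.41%): Trbv16 higher, and Trbv13-3, Trav7-5 and Trav15-1-dv6-1 lower in TNFR2+ Tregs. Over all genes tested, the levels of 15.4% did not overlap. Each of the 4 reached an exact two-sided permutation p of 0.0286, which is the smallest that the 70 relabellings of 4 against 4 libraries can give. Every segment without overlap gets this value, so the p restates how the 4 were picked. With near-identical copies summed, 3 of 32 tested alpha units did not overlap.

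The alpha V sum was spread over more segments than the beta V sum. Trav3d-3, the largest single segment, held 4.34%, 4.85%, 8.23% and 1.49% of the alpha V sum in TNFR2+ and 2.17%, 2.15%, 3.91% and 3.21% in TNFR2- libraries. Its groups overlapped, and it was the only alpha segment with a mean of at least 50 normalized counts (52.2). The next by mean share were Trav6-5, Trav7-4, Trav4-4-dv10, Trav4-3, Trav14n-3, Trav6-7-dv9, Trav3-3, Trav6d-7 and Trav14d-2, between 3.16% and 2.40%, and the first 10 held 27.3% together. With near-identical copies summed, the first 10 units held 55.4%. Trav6-5 held 1.41% to 3.23% in TNFR2+ and 3.12% to 4.59% in TNFR2- libraries (exact permutation p = 0.0857), and the shares of the other segments also overlapped. The 10 did not differ in order beyond their spread, since the SD over 8 libraries ran from 1.11 to 2.14 percentage points.

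The effective number of segments, the exponential of the Shannon entropy of the shares, gives the number of equally used segments with the same diversity. For alpha V it was 47.7, 52.7, 46.5 and 53.2 in TNFR2+ and 55.8, 49.6, 50.8 and 53.1 in TNFR2- libraries. For beta V it was 12.5, 14.0, 13.3 and 13.6 against 14.1, 14.3, 12.9 and 15.7. With near-identical copies summed, the alpha number was 24.7, 26.4, 25.2 and 25.04 against 27.8, 23.7, 26.4 and 24.7. None of these separated the groups, at differences of the means of -2.31 for alpha V, -0.31 for alpha V with copies summed and -0.91 for beta V.

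Near-identical copies at the alpha locus were also read as sums. Grouping segments with transcripts at least 95% identical across 50% or more of the length gave 43 units from 86 segments, and 30 units held 2 or more copies in the table. In all 30 the sum varied less between libraries than the median copy did, with a median coefficient of variation of 46.8% for the sums and 84.7% for single copies. Sums of unrelated segments would also tend to vary less than their parts, and no such sums were compared. This comparison therefore cannot show whether copies trade counts. In 57 of 240 combinations of unit and library, a copy was listed at 0 while another stood at 10 or more.

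Trav7-2 and Trav7d-2, which share the sequence printed above, were never above 0 in the same library. Trav7d-2 measured 51.8, 98.7, 0 and 0 in TNFR2+ and 0, 0, 64.8 and 38.3 in TNFR2- libraries. Trav7-2 measured 0, 0, 36.7 and 22.0 against 15.9, 37.6, 0 and 0. The summed pair measured 51.8, 98.7, 36.7 and 22.0 against 15.9, 37.6, 64.8 and 38.3, which overlapped.

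Trav15-1-dv6-1 lay lower in TNFR2+ libraries and its copy tended the other way; both, like the unit sums named next, were picked out after their values were seen. Trav15-1-dv6-1 measured 4.45, 0, 1.99 and 2.03 in TNFR2+ and 37.1, 4.50, 14.8 and 24.2 in TNFR2- libraries, a log2 difference of -2.68 (95% interval -4.89 to -0.47, adjusted p = 0.132 by limma). Trav15d-1-dv6d-1 measured 25.9, 0, 9.56 and 16.4 against 0, 7.24, 0 and 1.278. Their sum, 30.3, 0, 11.6 and 18.4 against 37.1, 11.7, 14.8 and 25.5, overlapped, and its log2 difference was -1.18 (95% interval -3.35 to 0.98, adjusted p = 0.528 by limma).

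Trav7-5 kept its separation when its copy was added. It measured 1.06, 13.1, 5.62 and 13.3 in TNFR2+ and 24.9, 43.4, 46.1 and 17.1 in TNFR2- libraries, a log2 difference of -2.12 (95% interval -3.80 to -0.44, adjusted p = 0.119 by limma). Summed with Trav7d-5 the pair measured 1.06, 14.0, 15.1 and 13.3 against 33.3, 67.3, 49.5 and 22.1. The summed log2 difference was -2.15 (95% interval -3.78 to -0.51, adjusted p = 0.106 by limma), also above the threshold.

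**Figure D4:**
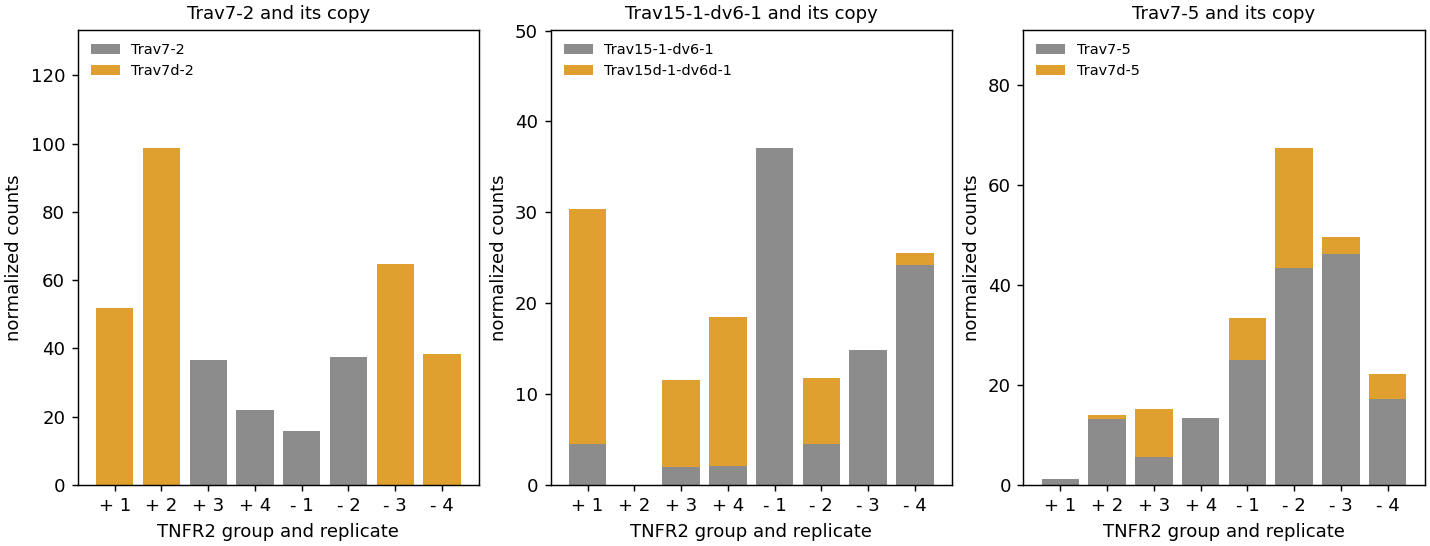
Normalized counts (vertical axis) in the 4 TNFR2+ (+ 1 to + 4) and 4 TNFR2- (- 1 to - 4) libraries for 3 pairs of near-identical alpha V copies, stacked so that the bar height is the sum of the pair. Trav7-2 and Trav7d-2 never share a bar, the Trav15 sum overlaps between the groups, and the Trav7-5 sum is lower in all TNFR2+ libraries.

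The largest alpha unit was the Trav14 family, whose 7 copies together held 9.78%, 13.0%, 10.2% and 11.1% in TNFR2+ and 14.6%, 15.6%, 11.51% and 17.7% in TNFR2- libraries, with overlap. The second, the 5 copies grouped with Trav9d-3, held 9.87%, 8.32%, 7.92% and 10.2% against 5.58%, 4.15%, 7.82% and 6.97%, without overlap but nearly touching. Its level with the copies summed differed by 0.68 on the log2 scale (95% interval 0.03 to 1.32, adjusted p = 0.192 by limma). Trav9d-3 by itself measured 27.6, 13.4, 60.8 and 46.5 against 2.98, 18.3, 26.9 and 3.12, and these levels overlapped. The third alpha unit that did not overlap was Trav15-2-dv6-2 with its copy, at 0.259% to 0.778% in TNFR2+ and 0.9749% to 2.09% in TNFR2- libraries (level difference -1.30 on the log2 scale, adjusted p = 0.299 by limma).

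Libraries of 1 group differed in V usage about as much as libraries of different groups. The percentage of usage that would have to move from some segments to others to turn a library's shares into another's was 17.1% in the median for the 6 pairs within TNFR2+, 18.6% for the 6 pairs within TNFR2- and 20.1% for the 16 pairs across groups at the beta locus. At the alpha locus the medians were 42.4%, 36.3% and 40.2%, and with copies summed 24.1%, 22.2% and 26.1%. The median across groups was thus somewhat above both within-group medians for beta and for alpha with copies summed. It lay between them for single alpha segments. The ranges overlapped at both loci, and since each library enters several pairs, no test was made.

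**Figure D5:**
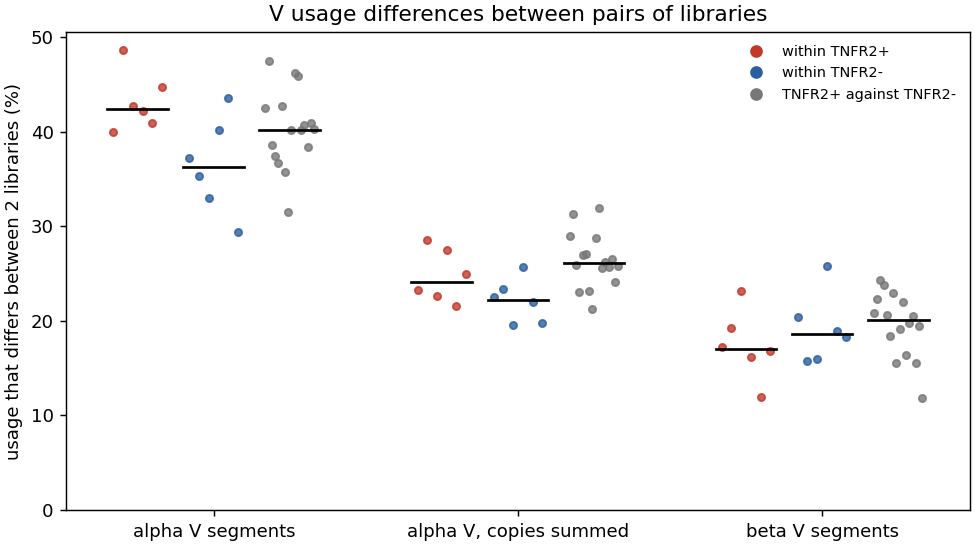
Percentage of V usage that differs between 2 libraries (vertical axis) for each pair within TNFR2+ (red), within TNFR2- (blue) and across the groups (grey), with the median as a bar. The ranges of pairs across and within the groups overlap at both loci, and summing copies lowers the alpha values.

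Of the 4 measured genes that mark gamma delta T cells, Trdc alone was high enough to test. Trdc, the delta constant gene (chr14:54142851-54148868), measured 32.7, 36.3, 27.9 and 31.9 in TNFR2+ and 50.2, 51.4, 63.9 and 31.5 in TNFR2- libraries, with overlap through TNFR2- replicate 4. The log2 difference was -0.56 (95% interval -1.45 to 0.33, adjusted p = 0.463 by limma). The 4 delta V segments Trdv1, Trdv2-2, Trdv4 and Trdv5 each had a mean under 10. Tcrg-C1, a gamma constant gene outside the name rule, was listed at 0 in each of the 4 TNFR2+ libraries. Its TNFR2- values were 6.06, 16.8, 24.5 and 4.14, with a mean too low to test. The other markers did not share this pattern. Trdv4 measured 0 to 22.7 in TNFR2+ and 0 in all TNFR2- libraries, and Tcrg-C2 overlapped (0 to 2.54 and 0 to 5.17). The 4 markers summed to 28.9 to 61.6 in TNFR2+ and 40.8 to 88.4 in TNFR2- libraries, with overlap. Trav1, the V segment of mucosal-associated invariant T cells, measured 0 to 10.6 and 2.12 to 5.17. Among markers of natural killer T cells, Zbtb16 measured 0 to 18.8 and 0 to 3.44, and Klrb1c 2.66 to 31.2 and 0 to 9.6. Trav11, Trav11d, Traj18 and Traj33, which mark invariant receptors, had no row and could not be compared.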

How the data were processed

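RNA was measured in 4 TNFR2+ and 4 TNFR2- Treg samples. Per the labels and the submitters' processing notes, the authors prepared libraries with a stranded total RNA kit of low input, checked reads with FastQC 0.11.8, trimmed them with Trim Galore, quantified transcripts with Salmon 1.3.0 on the GRCm38 transcriptome, and deposited gene counts normalized by DESeq2 1.28 in R 4.0, a signal that need not be whole. Salmon divides reads that match several transcripts, so near-identical segments can trade counts, and clone-specific junctions are not part of germline transcripts. No per-sample column was left unused (0). Identifiers were named from GENCODE M21 (20008 of 20172 matched).

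The main test was limma 3.58.1 (R 4.3.3) with an intensity trend on log2(normalized count + 1), over genes with a mean of at least 10, Benjamini-Hochberg adjusted over all genes tested at a threshold of 0.05. The same fit was run with V levels divided by the V sum of their locus. Copies were found with blastn 2.17.0. Single shares were compared by exact two-sided permutation (scipy 1.17.1). Only the limma fit was tested on simulated data. A count test was not used because the deposited values were normalized and not whole-number counts.

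Named genes were the constant genes, the 10 alpha and 10 beta V segments with the largest mean share, any called segment, segments with a mean of at least 50 whose shares did not overlap, invariant-receptor segments and a list of receptor chains and recombination genes. Others are said to be chosen after their values were seen, which holds for Trav7-5, Trav15-1-dv6-1, Trav9d-3, Trav13-1, Tcrg-C1 and the copy units. The members and lists were chosen with earlier results of these data known. Samples of equal replicate number were checked for deviating together and were analysed as unpaired, since no label pairs them. That check cannot show whether they shared animals. Alternatives were other pseudocounts, filters, scaling, variance settings, copies summed, and leaving out each library.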

Additional observations from a re-analysis of the deposited data

Results flagged for a closer look

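Among 84 sets of 4 libraries tested for a value far from the others (Dixon's test), 8 held 1, where chance alone gives about 1 in 20. Trac in TNFR2- replicate 4 (2296 normalized counts against 2917 to 2933 in the others) and Cd247 in the same library (3178 against 2088 to 2236) were both far from their group. Trbv3 in TNFR2+ replicate 1 stood at 489.6 normalized counts against 358.7 to 367.1. For shares of the V sum, Trav7-4 in TNFR2+ replicate 1 held 6.13% against 2.26% to 2.52%, Trav3-3 in TNFR2+ replicate 4 held 6.83% against 0.895% to 1.61%, and Trbv19 in TNFR2+ replicate 3 held 7.30% against 4.00% to 4.38%. In TNFR2- libraries, Trav4-4-dv10 in replicate 2 held 0.569% against 3.38% to 3.68%, and Trbv15 in replicate 3 held 3.09% against 6.61% to 7.25%.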

How the results depend on the processing

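Depth limits the delta V segments, none of which could be tested, and the alpha V segments, of which all but Trav3d-3 had a mean under 50 normalized counts. The count of all genes called, 1107, became 465 without the intensity trend and ran from 642 to 1301 when 1 library was left out; it fell most without TNFR2+ replicate 1 (722), 2 (642) or 3 (690) or TNFR2- replicate 2 (707). The number of receptor genes called higher, 0, became 1 without the intensity trend (Trbv16, adjusted p = 0.0438 by limma), 1 with a replicate block (Trac, adjusted p = 0.0329) and 0 to 1 when a library was left out (Trac without TNFR2+ replicate 4); none was called lower under any setting. Samples of the same replicate number did not deviate together (correlations of -0.0386 to 0.0005 over all genes). Over the receptor genes tested, these correlations were -0.29 to -0.16. Such values cannot show whether the samples shared animals. With no label pairing them, the replicate block, under which 1183 genes were called, was not the main fit. Cd3e was not called without the trend (adjusted p = 0.0863), and Cd3g passed under 5 settings (adjusted p = 0.0247 to 0.0486). Keeping only V segments with a mean of at least 50 left 13, of which Trav3d-3 was the only alpha segment. Its share was then the whole alpha V sum in every library, so overlap of alpha shares could not be assessed. Of the beta shares, 1 (Trbv13-3) did not overlap, while the Trbv16 shares overlapped. The alpha log2 ratio became 0.84, since 1 alpha segment remained. Leaving out a library gave 2 to 5 alpha and 2 to 3 beta shares without overlap. There were 4 or 5 alpha shares without TNFR2+ replicate 1 or 3 or TNFR2- replicate 2 or 4, and the cause was not tested. A smaller group separates more easily, so these counts cannot be set beside those from all libraries. No share over all genes is given for these settings. Summing copies, a setting added after seeing the data for the fits, changed no call. No result reversed its sign among those compared with a test.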
